A study of Mus musculus with 16 samples.

Results

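Wnt signalling genes were read out by the peaks of 3 histone H3 marks at their transcript starts in sorted mouse skin cells. The 46 genes are the 19 Wnt ligands, the 10 Frizzled receptors, the co-receptors Lrp5 and Lrp6, 10 secreted inhibitors (Sfrp1, Sfrp2, Sfrp4, Sfrp5, Frzb, Dkk1, Dkk2, Dkk3, Dkk4 and Wif1), the 4 R-spondins and the target gene Axin2. They were chosen by name, all 46 were found in the annotation, and they are 46 of 22367 protein-coding genes. A gene was counted as carrying a mark when at least 1 bp of a peak lay within 3000 bp of any of its annotated transcript starts.

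EA-HFSCs and LC-HFSCs were hair follicle stem cells of the bulge, sorted as CD34+/α6-integrin+ in early anagen (PD22 to PD25) and late catagen (PD38 to PD44). The CD34-/α6-integrin+ cells of the same ages are called non-EA-HFSCs in early anagen and non-LC-HFSCs in late catagen. PD is the postnatal day, early anagen the onset of hair growth, and late catagen the end of follicle regression. All groups came from wild-type mice of a CD1 x FVB cross, labelled as male, without a transgene or treatment, and each preparation pooled the cells of several mice. By the authors' methods, most of the work included mice of both sexes. The non-HFSCs are a mixture of epidermal and outer root sheath keratinocytes rather than 1 cell type. Chromatin cut with micrococcal nuclease was precipitated with antibodies to H3K4me3, H3K27me3 or H3K9me3, and the reads of replicate preparations were pooled before peaks were called. The 12 resulting lists, 1 per mark in each population, carry no measure of replicate spread, and populations are therefore compared here without a test.

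In canonical Wnt signalling a secreted Wnt protein binds a Frizzled receptor together with Lrp5 or Lrp6, β-catenin is then no longer degraded, and it enters the nucleus and acts with TCF/LEF factors. Secreted frizzled-related proteins (Sfrps and Frzb) and Wif1 bind Wnts outside the cell, Dickkopf proteins such as Dkk1 block the Lrp co-receptors, and R-spondins keep Frizzled receptors at the cell surface. In the hair follicle the pathway is known for driving the entry of stem cells into anagen. H3K4me3 marks the starts of active and poised genes, H3K27me3 is the mark of Polycomb repression, both together at 1 start are called bivalent, and H3K9me3 is typical of heterochromatin.

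Each peak has a score of 10 times the negative log10 of its p-value against the IgG library, with thresholds of 1e-05 for H3K4me3 and 0.0001 for the other marks. Scores grow with read depth, which the lists do not give, so they are compared here within a list only, as the percentage of the list's peaks that scored at least as high (called the top percentage). The lists held between 1414 and 42277 peaks, the shortest being those of LC-HFSCs for each mark. H3K4me3 peaks were found at 7 of 7 bulge markers in both HFSC lists and at 6 of 7 in both non-HFSC lists, where Cd34 had none. Basal epithelial markers carried H3K4me3 in all 4 lists (5 of 5). Leukocyte markers had none (0 of 5), 1 of 5 endothelial markers (Kdr) had a peak in each list, fibroblast markers had 4, 3, 4 and 3 of 5 and melanocyte markers 2, 2, 2 and 1 of 5, the HFSCs being given before the non-HFSCs and early anagen before late catagen, an order kept below wherever 4 values stand together. The part of such cells in the results was not tested.

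The Wnt genes carried H3K4me3 and, above all, H3K27me3 more often than genes at large. H3K4me3 was present at 38 of 46 members in EA-HFSCs (82.6%, 95% Wilson interval 69.3 to 90.9%, against 62.4% of all genes), at 33 in LC-HFSCs (71.7%, 57.5 to 82.7%, against 55.9%), at 36 in non-EA-HFSCs (78.3%, 64.4 to 87.7%, against 61.7%) and at 37 in non-LC-HFSCs (80.4%, 66.8 to 89.3%, against 58.8%). H3K27me3 was present at 23 members in EA-HFSCs (50.0%, 36.1 to 63.9%, against 14.0%), at 6 in LC-HFSCs (13.0%, 6.12 to 25.7%, against 3.73%), at 26 in non-EA-HFSCs (56.5%, 42.2 to 69.8%, against 16.8%) and at 19 in non-LC-HFSCs (41.3%, 28.3 to 55.7%, against 12.9%). For both marks, in all 4 lists, the lower bound of the members' interval lay above the share of all genes, by a wider margin for H3K27me3. With a score of at least 100 this ended in LC-HFSCs, where H3K27me3 was at 1 member (2.17%, 0.385 to 11.3%, against 1.19% of all genes) and H3K4me3 at 30 (65.2%, 50.8 to 77.3%, against 51.0%), and it held for both marks in every other list and alternative. The intervals cover counting error only. In bulk samples, fewer cells with a mark and less of the mark per cell cannot be told apart.

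H3K9me3 was found at 31 members in EA-HFSCs (67.4%, 53.0 to 79.1%, against 47.9% of all genes). It was found at 0 in LC-HFSCs (interval up to 7.71%, against 0.505%), at 2 in non-EA-HFSCs (4.35%, 1.20 to 14.5%, against 4.14%) and at 7 in non-LC-HFSCs (15.2%, 7.57 to 28.2%, against 14.1%). With a score of at least 100 the members were 15, 0, 1 and 0, against 16.7%, 0.148%, 1.39% and 0.778% of all genes. With the 4 lists cut by score to the length of the shortest they were 6, 0, 0 and 0, against 3.48%, 0.505%, 0.671% and 1.28%. In the 3 lists other than that of EA-HFSCs the share of all genes lay within the members' interval.

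**Figure D1:**
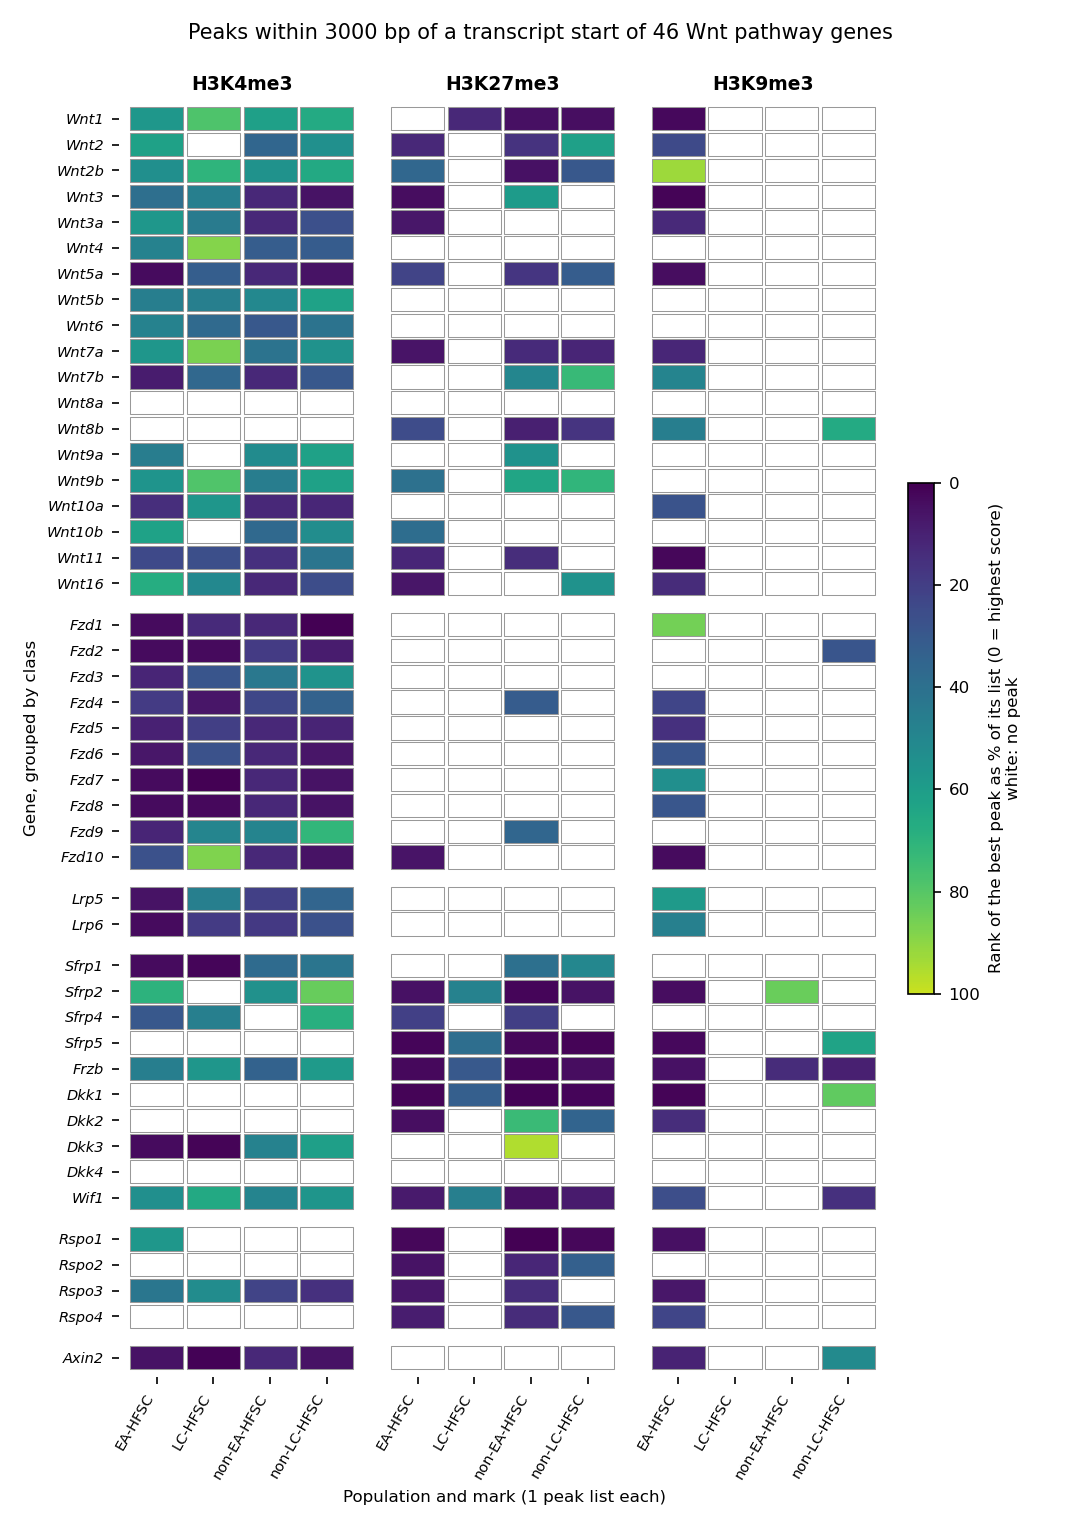
Each row is 1 of the 46 genes, grouped from top to bottom as ligands, Frizzled receptors, co-receptors, secreted inhibitors, R-spondins and Axin2, and each column is 1 of the 12 peak lists. Colour gives the rank of the gene's best peak within 3000 bp of a start as a percentage of its list, dark for the highest scores, and white marks no peak. All 10 Frizzled rows are filled for H3K4me3, the LC-HFSC column for H3K27me3 holds 6 filled cells, and the one for H3K9me3 holds 0.

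The receptors formed the most evenly marked group. All 10 Frizzled genes carried H3K4me3 in all 4 populations, as did the co-receptors Lrp5 and Lrp6 and the feedback target Axin2. In EA-HFSCs the best Frizzled peaks had a median top percentage of 8.28%, compared with 28.5% over all genes with a peak, and a median width of 5308 bp, compared with 3103 bp. In LC-HFSCs the Frizzled median was 16.5% (38.1% over all genes), in non-EA-HFSCs 12.1% (24.3%) and in non-LC-HFSCs 7.24% (29.6%). The 12.1% is the place shared by the 2701 H3K4me3 peaks of non-EA-HFSCs tied at a score of 3100. At the median the Frizzled genes therefore lay nearer the top of each list than genes at large.

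Of the 21482 H3K4me3 peaks of EA-HFSCs, 590 shared the score of 3100, and the members with the highest score there were the 7 genes tied at it: Wnt5a, Fzd1, Fzd2, Fzd7, Lrp6, Sfrp1 and Dkk3. Fzd7 had the widest of these peaks, 12316 bp in EA-HFSCs (chr1:59536029-59548344 of mm9), which covered 99.4% of the window around its start. In LC-HFSCs the Fzd7 peak spanned 9705 bp with a score of 1877, the 8th highest of 14718 peaks. In the non-HFSCs it spanned 7843 bp in early anagen and 7887 bp in late catagen, both with a score of 3100. That score was shared by 2701 peaks of non-EA-HFSCs and 874 of non-LC-HFSCs. Axin2 was likewise among the highest peaks of LC-HFSCs, with a score of 1154 (top 0.700%) and 7592 bp, and in EA-HFSCs it had a score of 2640 and 6151 bp.

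The 200 bases directly upstream of the annotated starts of Fzd7 and Axin2 are given as examples of starts that carried H3K4me3 in every population and H3K27me3 in none. They are read from the NCBIM37 (mm9) genome in the 5′ to 3′ direction of the gene, and capitals mark CpG dinucleotides, of which the Fzd7 stretch holds 15 and the Axin2 stretch 23.
Fzd7 (chr1:59538791-59538990, plus strand): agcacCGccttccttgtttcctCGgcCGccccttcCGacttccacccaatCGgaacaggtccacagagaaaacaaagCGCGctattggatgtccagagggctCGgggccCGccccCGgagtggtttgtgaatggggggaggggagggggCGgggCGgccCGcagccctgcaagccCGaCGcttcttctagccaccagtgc
Axin2 (chr11:108781463-108781662, plus strand): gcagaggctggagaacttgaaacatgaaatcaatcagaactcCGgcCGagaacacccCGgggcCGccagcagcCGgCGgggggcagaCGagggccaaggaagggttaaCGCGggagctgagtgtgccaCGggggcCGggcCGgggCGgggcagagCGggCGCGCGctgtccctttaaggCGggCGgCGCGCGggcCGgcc

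H3K27me3 was found at 1 of 10 Frizzled genes in EA-HFSCs and at 2 of 10 in non-EA-HFSCs, where 14.0% and 16.8% of all genes had it. Fzd10 was the only Frizzled gene with H3K27me3 in EA-HFSCs, with a score of 558 (top 5.87%) beside H3K4me3 of 1311, and it had H3K4me3 alone in the other 3 populations. Fzd4 (133) and Fzd9 (115) carried H3K27me3 in non-EA-HFSCs only. No Frizzled gene, and neither Lrp5, Lrp6 nor Axin2, had H3K27me3 in LC-HFSCs or non-LC-HFSCs. The start of Fzd4 lies 144 bp from that of Tmem135, transcribed the other way, so its peaks cannot be assigned to either gene. Starts of noncoding transcripts also lie within 3000 bp of those of Wnt5a, Wnt7b, Fzd6, Fzd10, Dkk2, Rspo1 and Axin2.

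**Figure D2:**
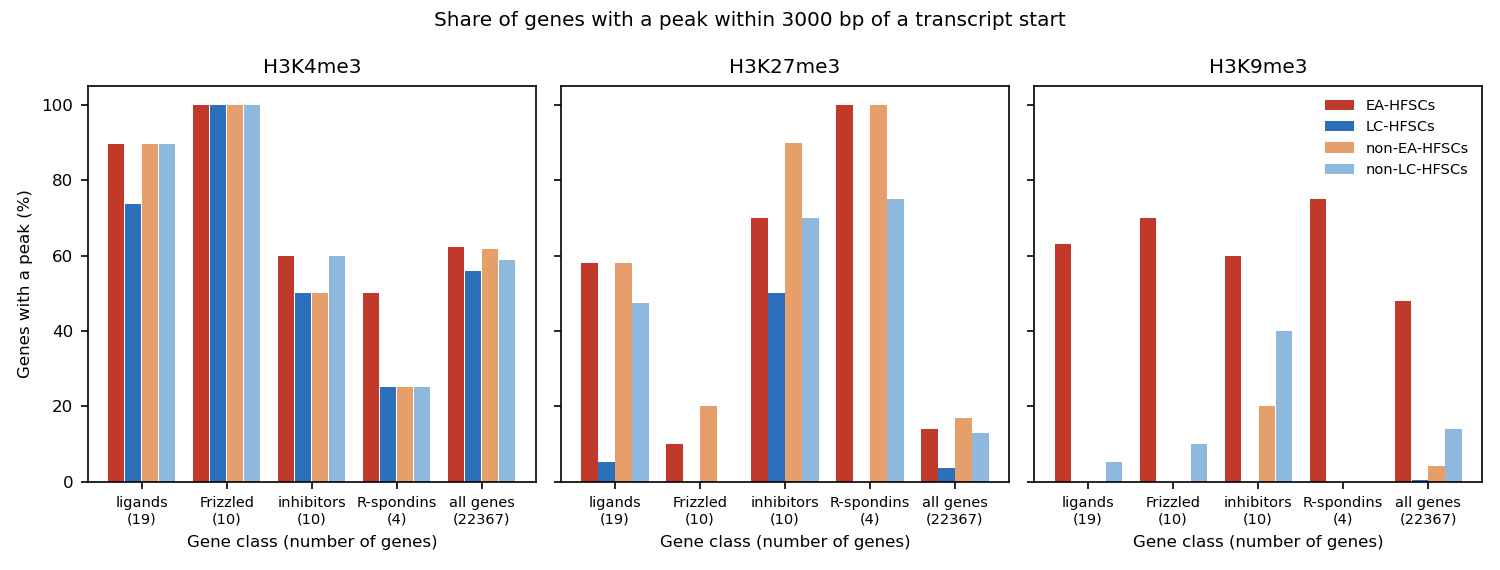
Bars give the percentage of genes with a peak within 3000 bp of a transcript start, by gene class (x axis, with the number of genes) and population (colour), in 1 panel per mark. For H3K27me3 the inhibitors stand at 50.0% in LC-HFSCs while the R-spondins fall from 100% in EA-HFSCs to 0% there, and all genes stand at 14.0% and 3.73%.

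The ligands were mostly marked by H3K4me3 whether or not H3K27me3 lay beside it. H3K4me3 was found at 17 of 19 ligands in EA-HFSCs, 14 in LC-HFSCs, 17 in non-EA-HFSCs and 17 in non-LC-HFSCs, and H3K27me3 at 11, 1, 11 and 9. Of all genes, 62.4%, 55.9%, 61.7% and 58.8% had H3K4me3, and 14.0%, 3.73%, 16.8% and 12.9% had H3K27me3. The 1 ligand with H3K27me3 in LC-HFSCs (5.26%) is near the share of all genes, which was also lower there than in EA-HFSCs. Wnt4, Wnt5b, Wnt6 and Wnt10a carried H3K4me3 in all 4 populations and H3K27me3 in none. Wnt5a, a ligand known for non-canonical signalling, had one of the highest H3K4me3 peaks in EA-HFSCs, with H3K27me3 of 149 in the same cells. Wnt8b had H3K27me3 in 3 lists (131 in EA-HFSCs, 456 in non-EA-HFSCs and 229 in non-LC-HFSCs) and H3K4me3 in 0.

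At the inhibitors and R-spondins H3K27me3 was at least as frequent as H3K4me3, except at the R-spondins in LC-HFSCs. H3K27me3 was found at 7 of 10 inhibitors in EA-HFSCs, 5 in LC-HFSCs, 9 in non-EA-HFSCs and 7 in non-LC-HFSCs, and H3K4me3 at 6, 5, 5 and 6. Over all genes the shares were 14.0%, 3.73%, 16.8% and 12.9% for H3K27me3, and 62.4%, 55.9%, 61.7% and 58.8% for H3K4me3. The inhibitors thus lay well above genes at large for H3K27me3 in every list, and near or below them for H3K4me3. The inhibitors' H3K27me3 peaks also stood high in every list but that of LC-HFSCs. Their median top percentage in EA-HFSCs was 4.16%, compared with 13.3% over all genes with a peak. In non-LC-HFSCs it was 5.10%, compared with 17.9%. In LC-HFSCs their median score was 71.3, compared with 72.2 over all genes with a peak in that list. All 4 R-spondins carried H3K27me3 in EA-HFSCs and in non-EA-HFSCs, 3 did in non-LC-HFSCs and 0 in LC-HFSCs. Their H3K4me3 was limited to Rspo3 in all 4 lists and Rspo1 in EA-HFSCs.

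The highest H3K27me3 scores among members in EA-HFSCs were those of Dkk1, Sfrp5 and Rspo1. Dkk1 had a score of 1671 (top 1.03%) over 10461 bp in EA-HFSCs, 79.9 over 4304 bp in LC-HFSCs, 2084 over 6657 bp in non-EA-HFSCs and 1325 over 5557 bp in non-LC-HFSCs, and no H3K4me3 peak in any of them. The nearest H3K4me3 peak of EA-HFSCs lay 373735 bp from its start. Sfrp5 had 1416 over 7870 bp, 71.3 over 4963 bp, 1221 over 13003 bp and 1593 over 7147 bp in the same order, also without H3K4me3. Rspo1 had 1284 over 11288 bp in EA-HFSCs, no peak in LC-HFSCs, 2447 over 12213 bp in non-EA-HFSCs and 1196 over 13327 bp in non-LC-HFSCs. Dkk1 and Sfrp5 were thus marked by H3K27me3 in every population, and Rspo1 in all but LC-HFSCs.

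Dkk1 and Sfrp5 are shown because they carried H3K27me3 in all 4 lists and H3K4me3 in none. The same 200-base stretch of the NCBIM37 genome upstream of the start holds 2 CpG dinucleotides at Dkk1 and 12 at Sfrp5.
Dkk1 (chr19:30624156-30624355, minus strand): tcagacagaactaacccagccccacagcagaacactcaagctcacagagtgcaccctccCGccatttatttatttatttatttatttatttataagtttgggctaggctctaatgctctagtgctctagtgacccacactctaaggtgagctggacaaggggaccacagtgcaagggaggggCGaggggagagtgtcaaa
Sfrp5 (chr19:42276743-42276942, minus strand): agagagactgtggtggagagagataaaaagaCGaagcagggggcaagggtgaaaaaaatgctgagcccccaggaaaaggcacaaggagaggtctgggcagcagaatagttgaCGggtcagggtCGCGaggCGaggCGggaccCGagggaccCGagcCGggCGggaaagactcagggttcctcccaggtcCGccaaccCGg

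Between early anagen and late catagen, stem cells kept H3K4me3 at most members and H3K27me3 at few. Of the 38 members with H3K4me3 in EA-HFSCs, 33 had it in LC-HFSCs (86.8%, 72.7 to 94.2%, against 89.3% of all genes with the mark in EA-HFSCs). Of the 23 with H3K27me3, 5 kept it (21.7%, 9.66 to 41.9%, against 26.1%). Of the 31 with H3K9me3, 0 did (interval up to 11.0%, against 0.765%). For each mark the share of all genes lay within the members' interval. The H3K27me3 list of LC-HFSCs held 1909 peaks and that of EA-HFSCs 25534. Cutting all 4 lists to the length of the shortest, by score, left H3K27me3 at 14, 6, 9 and 8 members, against 5.07%, 3.73%, 6.15% and 5.21% of all genes. Of the 14 in EA-HFSCs, 5 were then kept (35.7%, 16.3 to 61.2%, against 53.9%). With a score of at least 100, 0 of 20 were kept (interval up to 16.1%, against 11.8%).

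The 5 members that kept H3K27me3 were all inhibitors. Sfrp2, Sfrp5, Frzb, Dkk1 and Wif1 are 5 of the 7 inhibitors marked in EA-HFSCs, while 0 of the 16 other members marked there (11 ligands, Fzd10 and 4 R-spondins) had a peak in LC-HFSCs. The kept members also stood high in the EA-HFSC list, as did kept genes in general. Over all genes whose EA-HFSC peak was in the top 2% of the list, 67.8% of 404 kept H3K27me3, from 2 to 5% it was 50.4% of 448, from 5 to 10% it was 35.1% of 504 and below that 7.96% of 1783. Of the members in these bands, 2 of 3, 2 of 4, 1 of 8 and 0 of 8 kept the mark. Since inhibitors were 5 of the 7 members in the 2 highest bands, class and place in the list cannot be told apart for these genes. Rspo1 (top 1.72%), Wnt3 (796, top 3.76%) and Dkk2 (737, top 4.16%) were the members in the 2 highest bands without a peak in LC-HFSCs.

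Frzb, a Frizzled-related Wnt binder, had H3K27me3 scores of 1098 in EA-HFSCs and 83.5 in LC-HFSCs (chr2:80282304-80289043, with its middle in an intron), where a further peak of 63.0 lay upstream. Its score was 1374 in non-EA-HFSCs and 891 in non-LC-HFSCs, and it carried H3K4me3 in all 4 populations (741, 194, 1487 and 398). Frzb therefore had both marks in each of them by the 3000-bp rule. Its 2 annotated starts lie 8995 bp apart, and whether the marks shared a start or a cell was not tested.

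Wif1, the Wnt inhibitory factor, had H3K27me3 scores of 454, 64.1, 792 and 464 and H3K4me3 scores of 502, 156, 499 and 460 in the same order. Its LC-HFSC peak (chr10:120472850-120475119) lay in the first part of the gene and did not reach the start, and covered 19.4% of the window against 94.4% in EA-HFSCs. Wif1 had both marks in all 4 populations by the 3000-bp rule, and whether they shared a start or a cell was not tested.

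Sfrp2, a secreted frizzled-related protein, had H3K27me3 scores of 663, 63.3, 1438 and 659. The LC-HFSC peak (chr3:83568349-83573383) spanned 5035 bp and covered the start. H3K4me3 at Sfrp2 scored 166 in EA-HFSCs (top 70.0%), and 316 and 90.0 in the early and late non-HFSCs, and had no peak in LC-HFSCs, so Sfrp2 passed from both marks to H3K27me3 alone.

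Wnt1 was the only member to have H3K27me3 in LC-HFSCs but not in EA-HFSCs. The founding member of the family in mammals, it had an H3K27me3 peak of 6639 bp in LC-HFSCs (chr15:98618100-98624738, score 131, top 12.0%), which was the highest LC-HFSC score among members. In non-EA-HFSCs a peak of 23245 bp (score 824) and in non-LC-HFSCs a peak of 11436 bp (score 807) covered the same start. In EA-HFSCs the nearest H3K27me3 peak lay 12001 bp away, at Wnt10b. H3K4me3 was present in all 4 populations, with scores of 379, 106, 204 and 237. Wnt1 thus went from H3K4me3 alone to both marks, a change made by 8 of the 11979 genes with H3K4me3 alone in EA-HFSCs (0.0668%).

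H3K9me3 peaks lay on Wnt1 in EA-HFSCs, with scores of 227, 237 and 53.5, and no other list had one there. The Wnt1 upstream stretch, with 19 CpG dinucleotides, is printed because this start had H3K27me3 in every population but EA-HFSCs.
Wnt1 (chr15:98620088-98620287, plus strand): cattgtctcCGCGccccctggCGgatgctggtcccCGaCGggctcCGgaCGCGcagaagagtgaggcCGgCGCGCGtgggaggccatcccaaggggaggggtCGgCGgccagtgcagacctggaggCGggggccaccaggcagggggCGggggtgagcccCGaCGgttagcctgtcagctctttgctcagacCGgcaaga

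**Figure D3:**
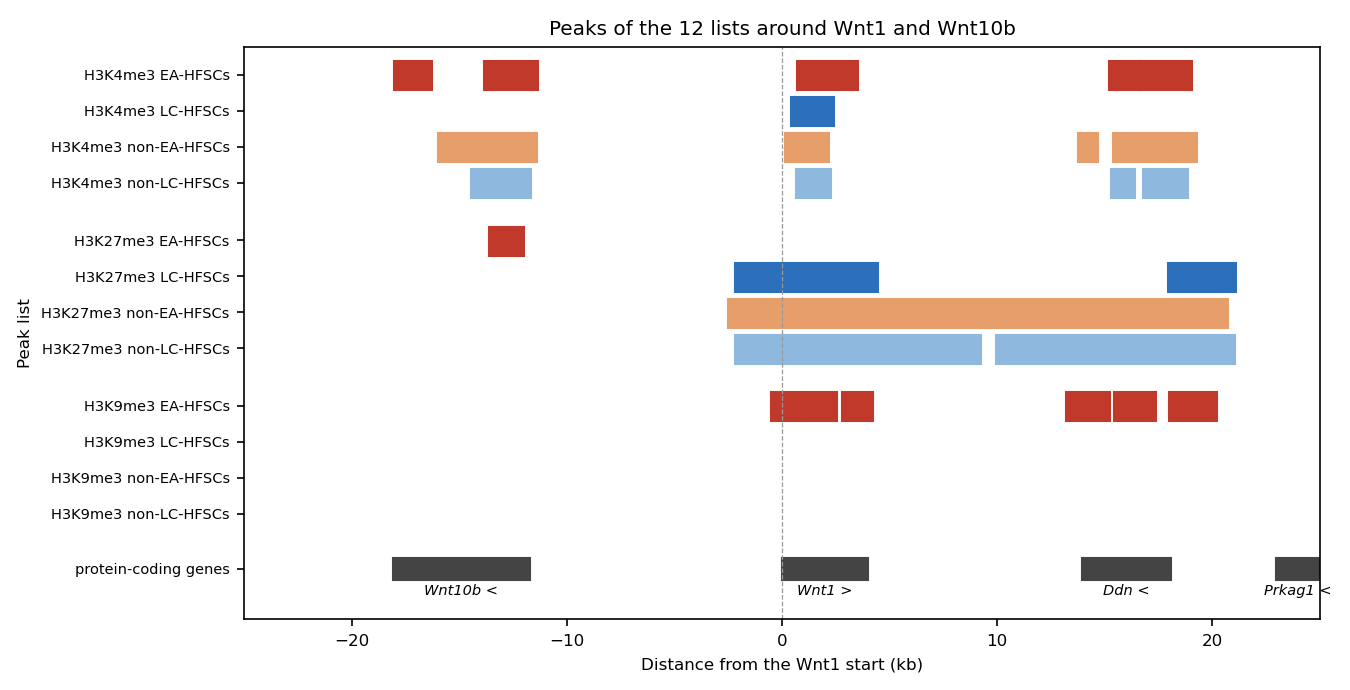
Horizontal bars are the peaks of the 12 lists (y axis) by distance from the Wnt1 start in kb (x axis), with protein-coding genes at the bottom and their direction of transcription shown by < or >. H3K27me3 covers the Wnt1 start in LC-HFSCs and in both non-HFSC lists and is found only at Wnt10b in EA-HFSCs.

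The 4 pairs of neighbouring ligands that follow were chosen for description after their values were seen. Wnt1 shares its locus with Wnt10b, a ligand known from hair placodes, which is transcribed away from it from a start 11707 bp distant. Wnt10b carried H3K27me3 in EA-HFSCs only (85.9, over 1644 bp) and H3K4me3 in all populations but LC-HFSCs (265, 1284 and 586, the peak over its start in EA-HFSCs scoring 191). At the main settings H3K27me3 thus lay on Wnt10b and not on Wnt1 in EA-HFSCs, and on Wnt1 and not on Wnt10b in the other 3 lists. With a score of at least 100, or with lists of equal length, neither gene had it in EA-HFSCs. Wnt3a and Wnt9a, with starts 16176 bp apart, also differed from each other. H3K27me3 lay on Wnt3a alone in EA-HFSCs (510) and on Wnt9a alone in non-EA-HFSCs (71.7), and on neither in LC-HFSCs and non-LC-HFSCs. In the same alternative settings Wnt3a kept it in EA-HFSCs, and Wnt9a did not keep it in non-EA-HFSCs. Wnt9b and Wnt3, 24329 bp apart, both carried it in EA-HFSCs (83.4 and 796) and non-EA-HFSCs (62.2 and 66.9), and Wnt9b alone did in non-LC-HFSCs (52.3). Wnt6 and Wnt10a, 19624 bp apart, carried it in no list. In these 4 pairs no peak of any list reached the windows of both genes.

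H3K4me3 was present in EA-HFSCs and not in LC-HFSCs at 5 members, and the reverse was found at 0. The share of EA-HFSC-marked genes that kept it was 86.8% for members (72.7 to 94.2%) and 89.3% for all genes. The 5 losses are therefore near what genes at large showed. Of the 7249 genes with neither H3K4me3 nor H3K27me3 in EA-HFSCs, 24 had H3K4me3 alone in LC-HFSCs (0.331%). Wnt2 had H3K4me3 scores of 276 in EA-HFSCs, 1380 in non-EA-HFSCs and 542 in non-LC-HFSCs. Wnt9a had 753, 384 and 311 in the same lists. Wnt10b and Sfrp2 are given above, and these 4 genes carried the mark in both non-HFSC lists. Rspo1 had H3K4me3 in EA-HFSCs alone (377, over 2749 bp), within its H3K27me3 domain of 11288 bp. In the EA-HFSC list the best peaks of all 5 stood between top 45.6% (Wnt9a) and 70.0% (Sfrp2).

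Members with both marks were frequent in EA-HFSCs and few in LC-HFSCs. Both were present at 17 members in EA-HFSCs (37.0%, 24.5 to 51.4%, against 8.89% of all genes), at 3 in LC-HFSCs (6.52%, 2.24 to 17.5%, against 1.30%), at 18 in non-EA-HFSCs (39.1%, 26.4 to 53.5%, against 10.8%) and at 12 in non-LC-HFSCs (26.1%, 15.6 to 40.3%, against 6.60%). Of the 17 in EA-HFSCs, 11 had H3K4me3 alone in LC-HFSCs (64.7%, compared with 44.2% of the 1988 genes with both marks), namely Wnt2b, Wnt3, Wnt3a, Wnt5a, Wnt7a, Wnt9b, Wnt11, Wnt16, Fzd10, Sfrp4 and Rspo3. Frzb and Wif1 kept both (11.8%, compared with 14.2% of those genes), Sfrp2 had H3K27me3 alone, and Wnt2, Wnt10b and Rspo1 had neither mark. In the non-HFSCs, 11 of 18 kept both (61.1%, compared with 56.9% of the 2411 genes with both marks there) and 7 had H3K4me3 alone in late catagen (38.9%, compared with 24.3%). These shares of 17 and 18 members were given no interval, so a difference from all genes is not claimed. With lists of equal length the members with both marks were 9, 3, 4 and 4, against 2.68%, 1.30%, 2.61% and 1.86% of all genes.

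**Figure D4:**
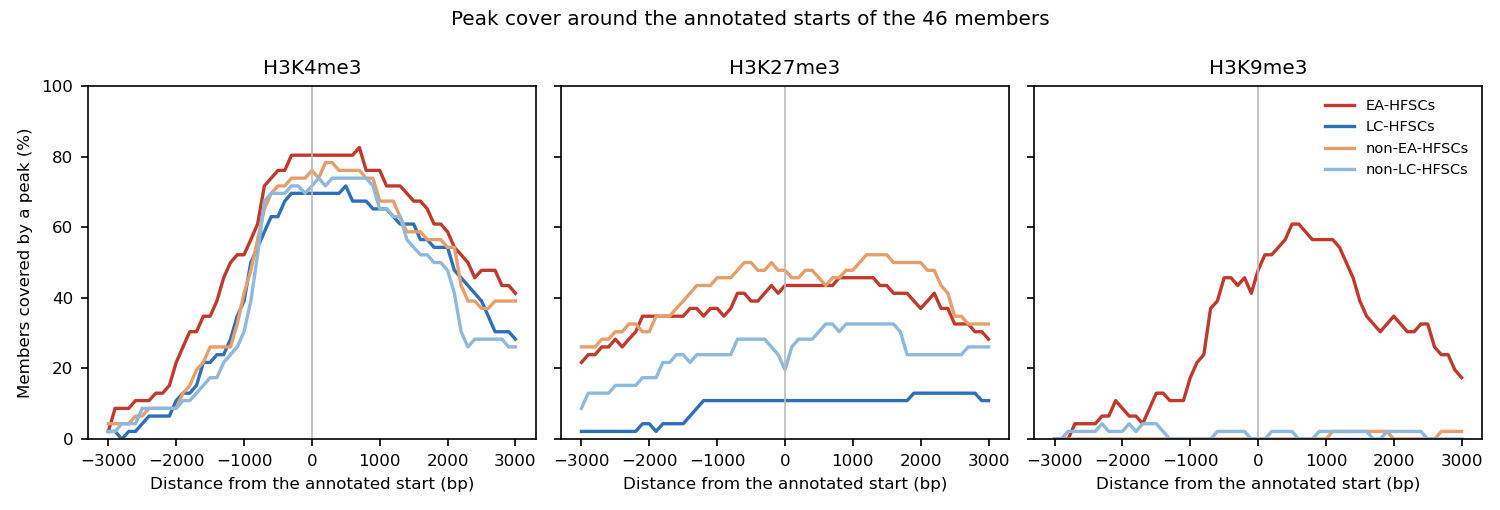
Lines give the percentage of the 46 members covered by a peak (y axis) at each distance from the annotated start in bp (x axis, negative upstream), by population (colour) and mark (panel). At the start itself H3K4me3 covered 80.4% of members in EA-HFSCs and 69.6% in LC-HFSCs, H3K27me3 covered 43.5% and 10.9%, and H3K9me3 covered 47.8% and 0%.

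The shape of the cover differed between marks. H3K4me3 in EA-HFSCs covered 80.4% of members at the start, 52.2% at 1000 bp upstream and 76.1% at 1000 bp downstream. H3K27me3 was flatter, with 43.5%, 37.0% and 45.7% at the same points. H3K9me3 in EA-HFSCs reached 60.9% at 500 bp downstream and fell to 17.4% at 1000 bp upstream, so its cover was lopsided towards the gene body as that of H3K4me3 was.

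Stem cells and the other cells were compared at each stage. H3K27me3 was present in both non-HFSC lists and in neither HFSC list at Wnt7b and Sfrp1 (4.35% of members, against 2.22% of all genes). Wnt7b, a ligand of the canonical pathway, had scores of 79.4 and 51.0 there, and Sfrp1 had 102 and 70.5, which stood between top 39.9% and 73.4% of their lists. H3K4me3 at Wnt7b scored 2282 in EA-HFSCs, 299 in LC-HFSCs, 3087 in non-EA-HFSCs and 1505 in non-LC-HFSCs. At Sfrp1 it scored 3100 (top 3.20%) and 971 (top 1.45%) in the HFSCs, and 1223 (top 37.7%) and 1012 (top 42.2%) in the non-HFSCs. Dkk3, a divergent relative of the Dickkopf proteins, had H3K4me3 scores of 3100 (top 3.20%), 1008 (top 1.22%), 559 (top 47.8%) and 334 (top 60.9%), in the same order, and H3K27me3 of 41.7 in non-EA-HFSCs alone. Dkk3 was singled out after its values were seen.

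No member differed in H3K4me3 between HFSCs and non-HFSCs in the same direction at both stages. Sfrp4 and Rspo1 had H3K4me3 in EA-HFSCs and not in non-EA-HFSCs (4.35% of members, against 2.19% of all genes). The highest peaks at Sfrp4 (1225 in EA-HFSCs, 244 in LC-HFSCs and 200 in non-LC-HFSCs) lay at the upstream edge of its window, towards the start of Epdr1, which is 3274 bp away, and in non-EA-HFSCs a peak of 449 lay just outside, at 3019 bp. Over the Sfrp4 start itself there were weak peaks in the HFSCs only, of 154 in early anagen and 53.4 in late catagen. In early anagen, H3K27me3 was found in HFSCs only at Wnt3a, Wnt10b, Wnt16 and Fzd10 (8.70% of members, against 2.58% of all genes), and in non-HFSCs only at Wnt1, Wnt7b, Wnt9a, Fzd4, Fzd9, Sfrp1 and Dkk3 (15.2%, against 5.36%). In late catagen, 13 members had it in non-HFSCs only (28.3%, against 9.27% of all genes), and 0 in HFSCs only (against 0.0581%). Members carried H3K27me3 more often to begin with, so these shares do not show that marked members differed more than other marked genes. Of those with H3K27me3 in non-LC-HFSCs, 13 of 19 members and 2073 of 2894 genes lacked it in LC-HFSCs. From non-EA-HFSCs to EA-HFSCs it was 7 of 26 and 1199 of 3760, and in reverse 4 of 23 and 578 of 3139.

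H3K9me3 peaks of EA-HFSCs lay mostly on peaks of the other marks, at members as at genes at large, though more often on H3K27me3 at members. Of 55 such peaks at members, 40 overlapped an H3K4me3 peak of the same cells (72.7%), 32 an H3K27me3 peak (58.2%), 53 at least 1 of them (96.4%) and 2 neither. Of the 12511 H3K9me3 peaks at the starts of all genes, 74.3% overlapped H3K4me3, 28.4% H3K27me3 and 89.9% at least 1 of them. The other lists differed from this. At the starts of all genes, the share on at least 1 of them was 2.78% in LC-HFSCs, 18.4% in non-EA-HFSCs and 65.5% in non-LC-HFSCs. At members it was 2 of 2 peaks in non-EA-HFSCs and 7 of 9 in non-LC-HFSCs. Why the EA-HFSC list differed was not tested. The highest scores were those of Dkk1 (488, top 0.887%, over 3224 bp), Wnt3 (381, top 1.25%, over 4078 bp) and Wnt11 (275, top 1.93%, over 2722 bp). The median over the 31 members was 99.3 (top 13.8%), compared with 80.1 (top 21.8%) over all genes with a peak. Dkk1 had H3K27me3 alone beside it, while Wnt3 and Wnt11 had both other marks.

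In the non-HFSCs, Sfrp2 (44.8) and Frzb (140) had H3K9me3 in early anagen. Frzb (79.8), Wif1 (70.2), Fzd2 (58.1), Axin2 (49.3), Sfrp5 (46.5), Wnt8b (45.9) and Dkk1 (42.5) had it in late catagen. The widths of these peaks in late catagen were between 397 and 819 bp, shorter than the members' median of 1758 bp in EA-HFSCs. Over all genes with a peak the median width was likewise shorter in non-LC-HFSCs (610 bp) than in EA-HFSCs (1279 bp).

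Wnt8a and Dkk4 had no peak of any mark in any list. The nearest peaks lay 3229 bp from Wnt8a (H3K4me3 in EA-HFSCs, score 109) and 6049 bp from Dkk4 (H3K27me3 in non-EA-HFSCs, score 117). No peak at the thresholds used does not show that a mark was absent. The Dkk4 stretch, with 2 CpG dinucleotides, is shown as a start without peaks.
Dkk4 (chr8:23734315-23734514, plus strand): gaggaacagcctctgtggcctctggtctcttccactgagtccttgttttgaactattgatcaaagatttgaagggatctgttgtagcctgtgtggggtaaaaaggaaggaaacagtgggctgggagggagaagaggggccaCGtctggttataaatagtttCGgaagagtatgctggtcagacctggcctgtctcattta

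The members were also compared by the sequence around their starts, which played no part in their choice. The observed to expected CpG ratio over 1001 bp centred on the annotated start had a median of 0.827 for the 14 members with H3K4me3 and no H3K27me3 in any population, 0.750 for the 24 that had H3K4me3 and H3K27me3, each in at least 1 population, 0.527 for the 6 with H3K27me3 alone (Wnt8b, Sfrp5, Dkk1, Dkk2, Rspo2 and Rspo4) and 0.280 for Wnt8a and Dkk4. The same order was found over all genes, with medians of 0.727, 0.662, 0.313 and 0.174. The ranges of the states overlapped: Wnt10a, with H3K4me3 in all 4 lists, had 0.394, and Rspo2, with H3K27me3 alone, had 0.734.

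**Figure D5:**
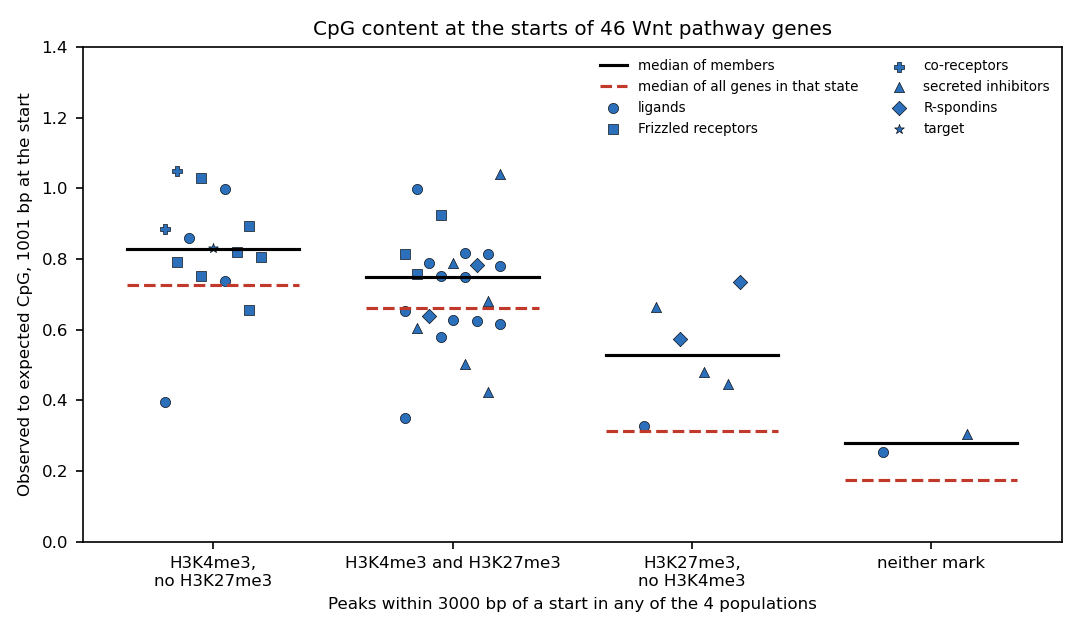
Points are the 46 members, by the marks found in any of the 4 populations (x axis) and the observed to expected CpG ratio over 1001 bp at the annotated start (y axis), with the symbol giving the class. Black lines are the members' medians (0.827, 0.750, 0.527 and 0.280) and dashed red lines those of all genes in the same state (0.727, 0.662, 0.313 and 0.174).

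The core motif of TCF/LEF factors was searched as the letters CTTTGAA, or CTTTGAT, or CTTTGTA, or else CTTTGTT on both strands of the 1000 bp upstream of each annotated start. It was found at 21 of 46 members (45.7%) and at 55.5% of all genes. Dkk4 held 5 matches, the most of any member, and Dkk1 held 3, while Axin2 held 0 in this window. A match is a description of letters and not a binding site.

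Genes of the pathway outside the list were marked by H3K4me3 nearly throughout. The 41 such genes act in secretion, as R-spondin receptors, other receptors, Kremen and other extracellular proteins, and in cytoplasmic and nuclear steps. H3K4me3 was found at 41 in EA-HFSCs, 39 in LC-HFSCs, 41 in non-EA-HFSCs and 39 in non-LC-HFSCs. The shares of all genes were 62.4%, 55.9%, 61.7% and 58.8%. H3K27me3 was found at 5, 1, 9 and 9 of the 41, against 14.0%, 3.73%, 16.8% and 12.9% of all genes. H3K9me3 was found at 27, 0, 0 and 5, against 47.9%, 0.505%, 4.14% and 14.1%. The 5 with H3K27me3 in EA-HFSCs were Lef1, Nkd2, Notum, Ror2 and Sost, and the gene that had it in LC-HFSCs was Sost, a secreted inhibitor that binds Lrp5 and Lrp6. Lgr5, a stem cell marker and R-spondin receptor, Nkd1 and Tle1 had H3K27me3 in both non-HFSC lists and in neither HFSC list. Of all genes, 2.22% did. Lgr5, Nkd1 and Tle1 had H3K4me3 in all 4 lists.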

How the data were processed

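The labels describe 16 mouse ChIP-seq samples, of which the 4 IgG samples served as background, and 12 peak lists were analysed. Trimmomatic 0.22, Bowtie2 and mm9 are named in the submitters' processing notes. The authors trimmed and aligned the reads, pooled replicates and called peaks with MACS against IgG. The deposited score of each peak is MACS's p-value as a negative log10 multiplied by 10. The authors' methods state near saturation for H3K4me3 and none for the other marks, which limits how far an absent peak can be read. The authors' methods give read numbers as ranges, with more reads in LC-HFSCs than EA-HFSCs, and the lists give none. Scores were therefore ranked only within a list, and tied peaks shared a rank. The minimum scores of 50 and 100 were the same for all lists.

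Transcript starts came from GENCODE vM1 on NCBIM37, the assembly of mm9; the last peak of each chromosome lay within its length. Starts of 22367 protein-coding genes on the 19 autosomes, X and Y were used, and the 733 peaks on unplaced sequence were not. Python 3.11.15, numpy 2.4.6, scipy 1.17.1 and matplotlib 3.10.9 were used. The window step was tested on simulated peaks and gave the same answer as bedtools 2.31.1 for 797 of 797 genes, with 3 windows. With 1 list per population and mark, no test was made; shares have 95% Wilson intervals.

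The members and lists were chosen with earlier results of these data known. Genes described one by one were those with H3K27me3 or H3K9me3 in LC-HFSCs, those with H3K4me3 in only 1 of EA-HFSCs and LC-HFSCs, those whose H3K4me3 or H3K27me3 differed between HFSCs and non-HFSCs alike at both stages, those without peaks, the 3 highest scores of each EA-HFSC list, with ties, and neighbours sharing a peak, of which there were none. Neighbouring pairs without a shared peak, and other genes named, were chosen after their values were seen. The 7 alternatives were score minimums of 50 and 100, windows of 1000 and 5000 bp, the annotated gene start only, the middle of the peak in the window, and equal numbers of top-scoring peaks per mark.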

Additional observations from a re-analysis of the deposited data

Results flagged for a closer look

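The number of members with a peak moved in opposite directions between early anagen and late catagen in HFSCs and non-HFSCs for 2 marks. For H3K4me3 it went from 38 in EA-HFSCs to 33 in LC-HFSCs and from 36 in non-EA-HFSCs to 37 in non-LC-HFSCs, the latter by Sfrp4 alone, while the share of all genes went from 62.4 to 55.9% and from 61.7 to 58.8%. The counts in the non-HFSCs were equal (36 and 36) with a score of at least 100, a window of 1000 bp or the middle of the peak in the window, and equal (38 and 38) with a window of 5000 bp. For H3K9me3 it went from 31 to 0 in the HFSCs and from 2 to 7 in the non-HFSCs, while the share of all genes went from 47.9 to 0.505% and from 4.14 to 14.1%. The latter counts were 1 and 0 with a score of at least 100, and 0 and 0 with lists of equal length. With 1 list per population and mark, the differences were not tested.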

How the results depend on the processing

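Of 19 counts, all 19 stayed within 1.5 times their value with a window of 5000 bp and with the annotated gene start only. With lists of 1 mark cut to equal length by score, 9 counts moved. H3K27me3 was then at 14 members in EA-HFSCs, 9 in non-EA-HFSCs and 8 in non-LC-HFSCs, beside 6 in LC-HFSCs, whose list is the shortest. H3K9me3 was at 6 in EA-HFSCs and at 0 in both non-HFSC lists, and both H3K4me3 and H3K27me3 at 9 members in EA-HFSCs and at 4 in each non-HFSC list. Under a minimum score of 100, 7 counts moved: H3K27me3 in LC-HFSCs to 1 (Wnt1), members keeping H3K27me3 to 0 of 20, H3K9me3 to 15 in EA-HFSCs, 1 in non-EA-HFSCs and 0 in non-LC-HFSCs, and both marks to 1 in LC-HFSCs and 6 in non-LC-HFSCs. H3K9me3 in non-EA-HFSCs was at 1 member, and in non-LC-HFSCs at 3 members under a minimum score of 50 and 4 with a window of 1000 bp, the count in non-EA-HFSCs being 1 also with the middle of the peak in the window. Fewer peaks entered each of these settings by construction. No count of H3K4me3 by itself, and no count of H3K9me3 in LC-HFSCs, moved under any of the 7 alternatives. No paired analysis was possible because each population and mark has 1 list. The lists do not give their depth, which limits how far a missing H3K27me3 or H3K9me3 peak can be read. By the ranges in the authors' methods, LC-HFSCs had more reads than EA-HFSCs.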
